A study of Arabidopsis thaliana with 12 samples.

Results

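In Columbia plants of Arabidopsis thaliana, 69 probe sets of 22746 were strong in the youngest buds and much lower in older flowers and stem. They were chosen on the 4 Columbia arrays by 2 conditions. The stage 1-10 signal had to be 500 or more, and signal + 50 at stage 1-10 had to be at least 4 times that of stage 11-12 flowers, of stage 13-14 flowers and of stem. The conditions were met by 74 probe sets. Of these, 5 belonged to genes that the choice left out by name (A9, LCR66, AT1G68875, AT5G62080 and AT1G75920), which left 69. The probe annotation used here gave 1 gene for 39 of the 69, and 30 were not listed there and are named by probe set only. Because Columbia chose the members, their Columbia values are given as a description, and tests rest on the mutant arrays, which took no part in the choice.

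The study compared flowers and stems of 3 genotypes with 1 oligonucleotide array each for 4 tissues, 12 arrays in all. The genotypes were arf6 arf8, with both auxin response factor genes mutated, then arf6/arf6 ARF8/arf8, which keeps 1 functional copy of the pair and is called single-copy below, and Columbia, the wild type. The written design names the intermediate genotype the other way round, ARF6/arf6 arf8/arf8, and the name in the sample titles is kept here. Plants had grown untreated in long days for 6 weeks, and stem was a piece of about 0.5 cm from just under the inflorescence. The mutations were present in every cell of the mutant plants, so the arrays do not tell a change inside the anther from one elsewhere in the flower. The stage labels are those of the submitters, and the sources used here do not say how stages were matched between genotypes.

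ARF6 and ARF8 are auxin response factors, transcription factors that promote the last steps of flower maturation: stamen filament growth, petal expansion, gynoecium growth and nectar. An earlier event in the flower is the work of the tapetum, where single members such as AMS act. It is the nurse layer that lines the anther locule. It makes the enzymes that free the microspores, the precursors of the pollen wall, and phenolic and lipid coat material, and then degenerates before the anther opens.

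There were no replicates within a genotype and tissue. All signals are the deposited linear array intensities, and the 2% trimmed mean was close to 500 on each array. The single-copy arrays of stage 1-10 and stage 13-14 stood apart from the other arrays of that genotype. They differed from Columbia at least 2-fold at 1182 and 1307 probe sets, against 584 at stage 11-12 and 369 in stem. In arf6 arf8 these counts were 545 at stage 1-10, 1575 at stage 11-12, 2253 at stage 13-14 and 1058 in stem. In whole flowers and stems, fewer cells of a type and less RNA per cell cannot be told apart.

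Of the marker genes set out for these tissues, 3 were members. AMS is the basic helix-loop-helix regulator of the tapetum. AT1G33430, also called UPEX1, is a galactosyltransferase-family protein needed for the outer pollen wall, and AT3G52130 is a lipid transfer protein of the anther. The array annotation covered 3 of 9 tapetum and anther regulators. The other 2, EMS1 and SPL, were not members: EMS1 read 551.8 at stage 11-12 against 830.9 at stage 1-10 in Columbia, and SPL reached 348.7 at stage 1-10. None of the meiosis genes (3 of 13 covered), floral identity and meristem genes (3 of 18), late pollen genes (4 of 12) or nectary genes (1 of 5) was a member. Pollen coat, cell division, histone and secondary wall lists had no covered gene. The young-bud label therefore rests on the arrays of stage 1-10, and the tapetum is named for single genes only.

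The members can be grouped by role. Of the 39 with a gene, 1 is a regulator, 8 act on walls or are wall proteins, 3 are lipid transfer proteins, 9 are acyltransferases, redox enzymes and related enzymes, 2 are proteases, 7 are other proteins of known family, and 9 are given no role here. These 39 lie on all 5 chromosomes, with 11, 6, 7, 6 and 9 genes on chromosomes 1 to 5. In the TAIR10.1 annotation 3 pairs lie within 10 genes of each other. AT5G16920 and AT5G16960 have 3 protein-coding genes between them, AT5G47600 and AT5G47635 also 3, and AT3G23770 and AT3G23840 have 7. The genes were short, with a median annotated length of 1264 bases (413 to 3267), against 2107 bases over 12293 listed protein-coding loci on the array.

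**Figure D1:**
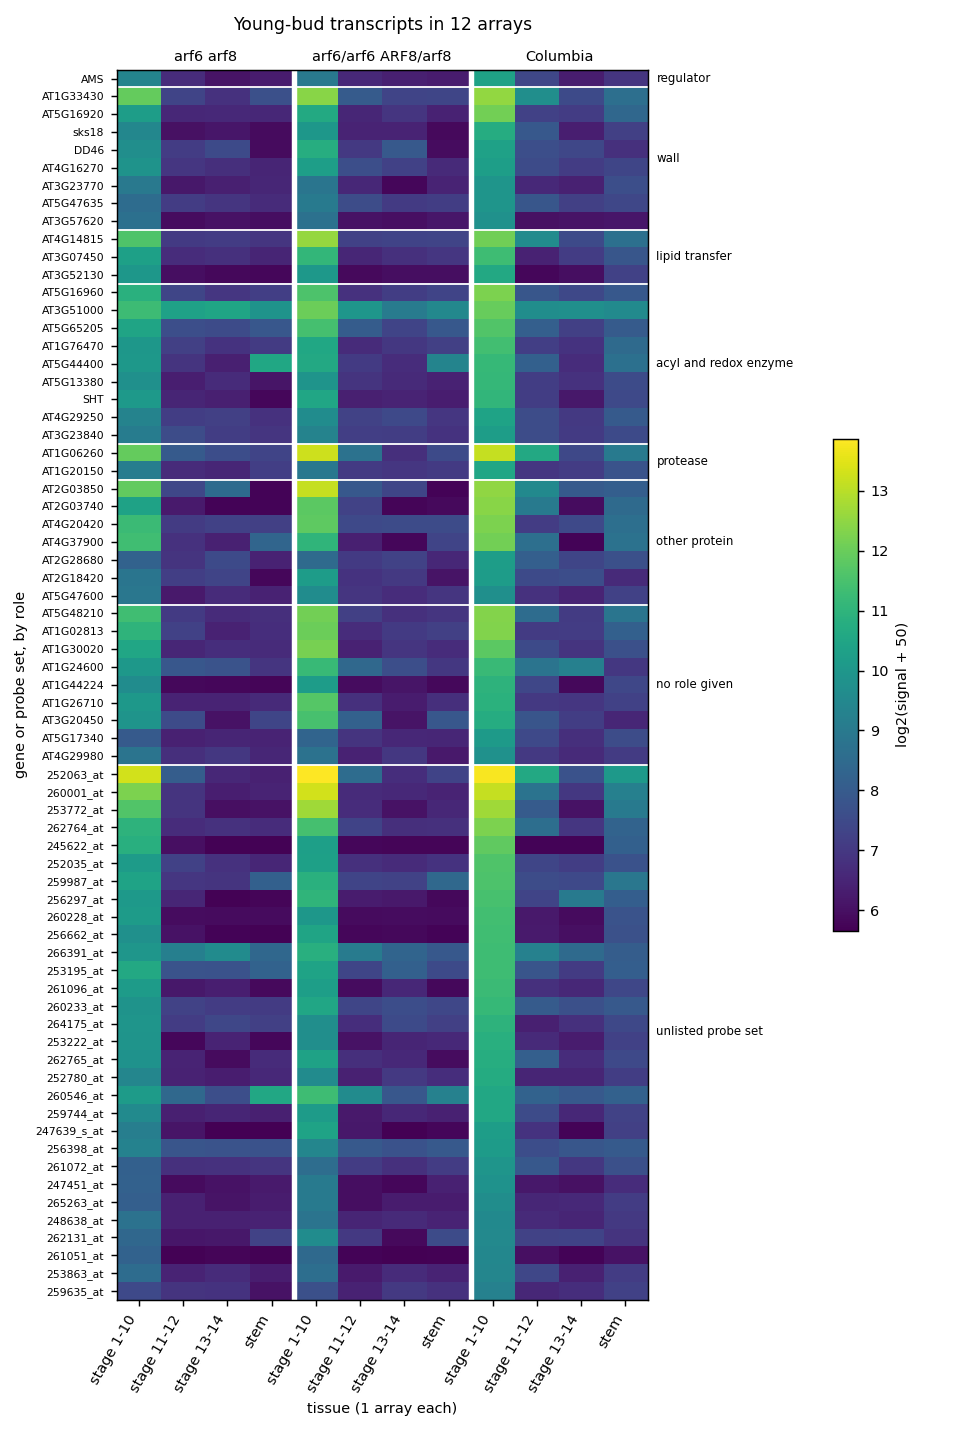
Each cell gives log2(signal + 50) of 1 of the 69 members (grouped by role, down the page) in 1 of 12 arrays, for arf6 arf8, arf6/arf6 ARF8/arf8 and Columbia from left to right. The stage 1-10 column of each genotype is mostly bright and the other 3 columns mostly dark. In the mutants AT3G51000, 266391_at, AT5G44400 and 260546_at also have bright cells outside stage 1-10. Some members are weak at stage 1-10 there, such as 259635_at (127.8 in arf6 arf8 and 150.3 in arf6/arf6 ARF8/arf8). A stage 1-10 signal of 500 or more was reached by 53 members in arf6 arf8 and 54 in arf6/arf6 ARF8/arf8.

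The same decline was measured in both mutants. Over the 8 mutant arrays, with genotype and tissue as terms, all 69 members were lower at stage 11-12 than at stage 1-10, and 64 of them passed an adjusted p of 0.05 in limma, against 0.686% of all probe sets called lower. The median member difference was -3.23 on the log2(signal + 50) scale (range -6.01 to -0.90, median SE 0.257), and the median of all probe sets was -0.03. At stage 13-14 against stage 1-10, 65 members were called lower (2.37% of all), with a median of -3.34. In stem against stage 1-10, 63 were called lower (2.51% of all), with a median of -3.50. No member was called higher in any of the 3 comparisons, where 0.849%, 2.55% and 1.08% of all probe sets were. In all 3 comparisons together 61 members were called lower.

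Each tissue mean rests on 1 array of each mutant genotype. These p-values therefore set the mean tissue difference against how far the mutants disagree on it. Without the single-copy arrays of stages 1-10 and 13-14, the stage 11-12 comparison kept all 69 members below 0 with a median of -3.05, but called 0 (66 had an unadjusted p under 0.05, and 0 of all probe sets were called either). The stage 13-14 comparison then called 11 members with a median of -3.26, and the stem comparison 46 with a median of -3.14. Leaving out single arrays also moved the stage 11-12 count of 64: without the single-copy array it became 32 (stage 1-10), 0 (stage 11-12) or 38 (stem), and without the arf6 arf8 array 15 (stage 11-12) or 38 (stem). The stem count of 63 became 29 without the single-copy stem and 33 without the arf6 arf8 stem.

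**Figure D2:**
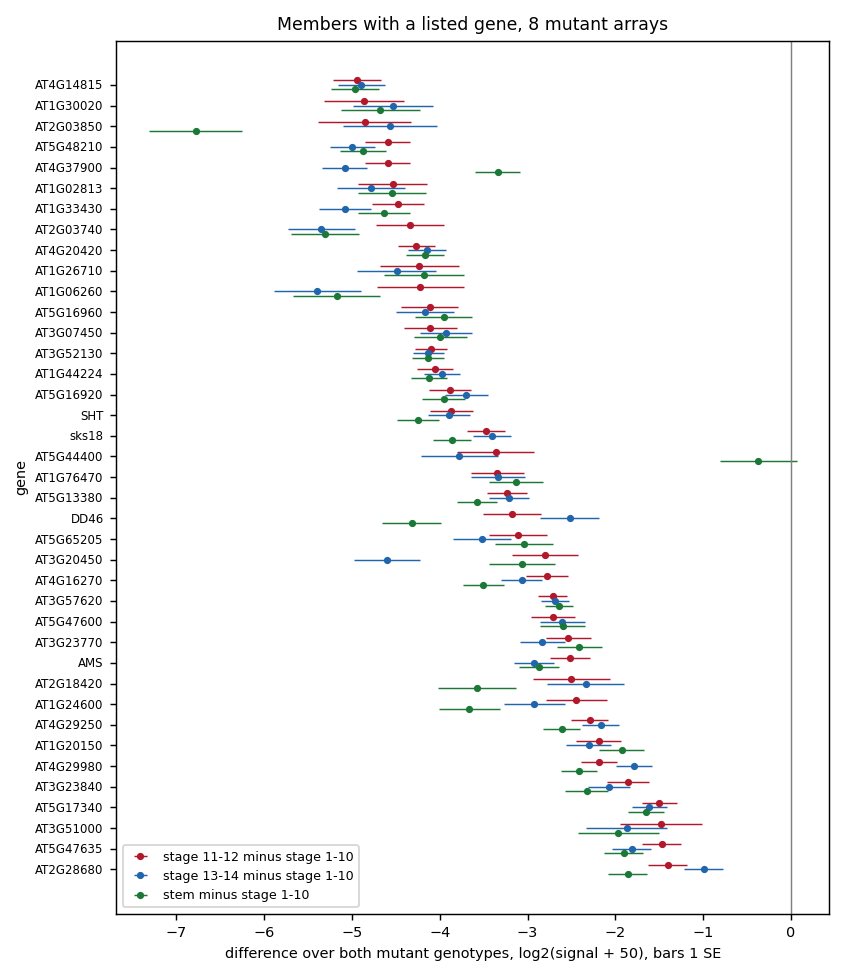
For the 39 members with a gene, points give the difference from stage 1-10 over both mutant genotypes on the log2(signal + 50) scale (x axis) at stage 11-12, stage 13-14 and in stem, with bars of 1 SE. Nearly all points lie between -1 and -6, and the stem point of AT5G44400 (-0.37) lies closest to 0.

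AMS, which switches on many tapetum genes for pollen wall formation, read 609.5 at stage 1-10 in arf6 arf8, 448.3 in single-copy plants and 1291.6 in Columbia. At stage 11-12 it read 54.7, 46.2 and 118.2 in the same order of genotypes. At stage 13-14 the signals were 18.8, 32.9 and 29.4, and in stem 28.6, 27.9 and 71.1. Every array after stage 1-10 lay far below every stage 1-10 array. In the mutants the stage 11-12 level was -2.51 (SE 0.228) relative to stage 1-10 on the log2 scale, limma adjusted p = 0.0103.

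All 8 wall genes fell in the mutants at stage 11-12, at stage 13-14 and in stem. AT1G33430 was the strongest of them. Its stage 11-12 signal was 112.7 against 3811.7 at stage 1-10 in arf6 arf8, 208.5 against 5336.3 in single-copy plants and 781.4 against 5901.4 in Columbia. Its mutant difference at stage 11-12 was -4.48 (SE 0.294, limma adjusted p = 0.00356). AT5G16920, a fasciclin-like arabinogalactan protein of the cell surface, had 45.7 against 1162.8 in arf6 arf8, 43.9 against 1563.1 in single-copy plants and 101.5 against 4433 in Columbia. Both genes were thus down to a small part of their young-bud level by stage 11-12 in each genotype, although AT1G33430 still had a clear signal in Columbia.

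AT3G23770 belongs to the beta-1,3-glucanases, enzymes that cut callose, the polymer that encloses young microspores. Its signals at stage 11-12 were 23.5 in arf6 arf8, 44.4 in single-copy plants and 47.8 in Columbia, against 458.9, 409.4 and 942.8 at stage 1-10. In the mutants it differed by -2.54 (SE 0.257, limma adjusted p = 0.0139). The remaining wall genes are sks18, a multicopper oxidase relative, DD46, a galactosyltransferase-family protein, AT3G57620, related to glyoxal oxidases, the class III peroxidase AT4G16270, and AT5G47635, an Ole e and extensin family protein. Their mutant differences at stage 11-12 ran from -3.48 for sks18 to -1.47 for AT5G47635. DD46 was lowest in stem, with signals of 10 in arf6 arf8, 11.4 in single-copy plants and 60.7 in Columbia.

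Lipid transfer proteins carry lipids through the apoplast, and in the anther some of them carry wall lipids toward the microspores. All 3 in the group fell in each mutant comparison. AT4G14815 had 83.2 at stage 11-12 against 3087.4 at stage 1-10 in arf6 arf8, 101.2 against 6028.5 in single-copy plants and 730.1 against 4336.1 in Columbia. Its mutant difference of -4.94 (SE 0.271, limma adjusted p = 0.00296) was the largest of the 39 members with a gene at that stage. AT3G52130 was near the floor of the arrays by then, at 12.5, 8.8 and 5.1 in arf6 arf8, single-copy and Columbia flowers, against 974.1, 1003.6 and 1530.1 at stage 1-10. AT3G07450 stood at 53.9, 42.3 and 37.8 at stage 11-12 against 1237.6, 2158.1 and 2520 at stage 1-10. These last genes were off at stage 11-12 in Columbia as far as in the mutants, whereas AT4G14815 kept the higher stage 11-12 signal in Columbia.

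Of the 9 acyltransferases and redox enzymes, 8 were called lower at stage 11-12, 8 at stage 13-14 and 7 in stem. SHT, the tapetal transferase that joins hydroxycinnamic acids to spermidine for the pollen coat, had 40.7 at stage 11-12 against 1043.3 at stage 1-10 in arf6 arf8. It had 32.8 against 1415.5 in single-copy plants and 90.9 against 2088.2 in Columbia. The mutant difference was -3.87 (SE 0.242, limma adjusted p = 0.00299). The zinc-binding dehydrogenase AT5G16960, the strongest of this group in Columbia, had 115.7, 63.9 and 183.4 at stage 11-12 against 1820.4, 2984.9 and 4873.4 at stage 1-10. Also called lower in all 3 comparisons were the Rossmann-fold proteins AT5G65205 and AT1G76470, the GH3-family protein AT5G13380, and the acyltransferases AT4G29250 and AT3G23840 (a CER26-like protein).

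The group's other 2 genes were its exceptions. AT3G51000, an alpha/beta-hydrolase, kept a high level throughout arf6 arf8: 1259.7 at stage 11-12, 1374.7 at stage 13-14 and 899.4 in stem, against 2433.3 at stage 1-10. In single-copy plants it read 956.6, 489.1 and 661.6 against 4099.9, and in Columbia 778.7, 800.1 and 712.1 against 3917. It kept a signal of 489.1 or more on every array, and in the mutants none of its differences passed the test (stage 11-12 -1.48, SE 0.465, limma adjusted p = 0.24). AT5G44400, a berberine bridge enzyme-like oxidase, was called lower at stage 11-12 (-3.36, limma adjusted p = 0.0276) and at stage 13-14 but not in stem. Its stem signals were 1440.3 in arf6 arf8, 607.7 in single-copy plants and 366.2 in Columbia, and its stage 1-10 signals 988.2, 1531.4 and 2226.

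The proteases were AT1G06260, a papain-type cysteine protease, and AT1G20150, a subtilisin-type serine protease. Both were called lower in all 3 mutant comparisons. AT1G06260 had 200.7 at stage 11-12 against 3828 at stage 1-10 in arf6 arf8, 379.7 against 9631.5 in single-copy plants and 1516.1 against 9029.3 in Columbia. At stage 13-14 it was down to 145.2, 58.5 and 124.8, so in Columbia most of what was left at stage 11-12 was gone by stage 13-14. Its mutant difference at stage 11-12 was -4.22 (SE 0.497, limma adjusted p = 0.0217).

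Among the other protein families, AT4G20420, a TAP35/TAP44 tapetum protein, had 85.7 at stage 11-12 against 2402 at stage 1-10 in arf6 arf8. It had 126.7 against 3575.9 in single-copy plants and 88.6 against 4861 in Columbia. It was low in all 3 genotypes at stage 11-12. The late embryogenesis abundant proteins AT2G03850 and AT2G03740, members of a family linked to drying tissue, kept a higher stage 11-12 signal in Columbia. AT2G03850 had 119.3, 190.8 and 704.5 at stage 11-12 in arf6 arf8, single-copy plants and Columbia, against 3752.1, 8939.4 and 5789.8 at stage 1-10, and its stem signals were 2.9, 3.5 and 229.4. AT2G03740 had 25.9, 103.5 and 469.7 against 1295.1, 3511.8 and 5378.9, and 2.9, 7.6 and 312.8 in stem. Both read higher in Columbia than in either mutant at stage 11-12 and in stem. This was common: Columbia was highest for 53 of the 69 members at stage 11-12 and 60 in stem (26.0% and 39.6% of all probe sets).

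AT4G37900, a glycine-rich domain protein, had 63.1 at stage 11-12 against 2556.4 at stage 1-10 in arf6 arf8, 33.1 against 2049.1 in single-copy plants and 349.6 against 4385.9 in Columbia. AT5G47600, an HSP20-like chaperone, was also called lower in all 3 mutant comparisons. The cupin AT2G28680 missed the test at stage 13-14 (-0.99, limma adjusted p = 0.0629). AT2G18420, a GASA-family peptide, missed it at stage 11-12 (-2.50, limma adjusted p = 0.0604). Both had stage 1-10 signals in arf6 arf8, 254.9 and 406.8, far under the 1160.3 and 1116.4 of Columbia.

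The 9 genes with no role given were all called lower in the 3 mutant comparisons. The strongest were AT5G48210, AT1G02813 and AT1G30020, the last 2 of a family of unknown function (DUF538). AT5G48210 had 84.1, 96.8 and 324 at stage 11-12 in arf6 arf8, single-copy plants and Columbia, against 2543.4, 4380.2 and 5142.7 at stage 1-10. AT1G02813 had 103, 54.3 and 85.2 against 2018.5, 4111.8 and 5060.8. AT1G30020 had 42.9, 36 and 130.4 against 1415, 4558.8 and 3556.4. All 3 read 103 or less at stage 11-12 in the mutants.

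Of the 30 unlisted probe sets, 27 were called lower at stage 11-12, 28 at stage 13-14 and 26 in stem. Among them was the strongest member of all, 252063_at, with 217.4, 330.8 and 1500.6 at stage 11-12 in arf6 arf8, single-copy plants and Columbia, against 10060.2, 14927.7 and 13997.4 at stage 1-10. Next came 260001_at, with 69.7, 50.9 and 389.8 against 4860, 10133.8 and 9059.1, and 253772_at, with 69.3, 53.2 and 210.6 against 3164.2, 6651.6 and 6618.6. In these 3 the level at stage 11-12 was higher in Columbia than in both mutants. The probe sets 245622_at, 260228_at and 256662_at were nearly off in every genotype by stage 11-12: their signals there ran from 3.7 to 26.4, against Columbia stage 1-10 signals of 3712.1, 2608.9 and 2573.2.

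The remaining strong unlisted probe sets were 262764_at, 252035_at, 259987_at and 256297_at, with Columbia stage 1-10 signals of 4767.6, 3044.2, 2994.1 and 2787.6. All 4 were called lower in each mutant comparison. Besides AT3G51000, AT5G44400, AT2G28680 and AT2G18420, the members that missed a call were unlisted: 266391_at and 259635_at in all 3 comparisons, 260546_at at stage 11-12 and in stem, and 262131_at in stem. The probe set 260546_at read 1472.9 in arf6 arf8 stem, 568 in single-copy stem and 245.1 in Columbia stem, against 1109, 2496.9 and 1483.3 at stage 1-10. At stage 11-12 it fell alike in arf6 arf8 (-1.75 on the log2 scale) and single-copy plants (-1.71). Its SE of 0.600 there also holds the disagreement of the mutants in stem.

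Within single genotypes, the drop was counted by its size. In arf6 arf8, signal + 50 was at least 4 times lower than at stage 1-10 for 57 members at stage 11-12 (0.576% of all probe sets), 57 at stage 13-14 (1.32%) and 55 in stem (1.91%), and for 51 in all 3 tissues (0.422%). In single-copy plants these counts were 60 (0.501%), 61 (1.60%), 61 (1.88%) and 57 (0.413%). All 69 members pass in Columbia by choice, where 0.352% of probe sets do. A drop of at least 2-fold at stage 11-12 was seen for 66 members in arf6 arf8 (3.53%) and for all 69 in single-copy plants (2.37%). The smallest drops in arf6 arf8 were 1.49-fold for 259635_at, 1.74-fold for 266391_at and 1.90-fold for AT3G51000, then 2.58-fold for AT2G28680, 2.60-fold for 261072_at and 2.74-fold for AT5G47635. In single-copy plants they were 2.33-fold for 259635_at, 2.70-fold for AT5G17340, 2.72-fold for AT2G28680, 2.74-fold for 256398_at, 2.81-fold for AT5G47635 and 2.82-fold for 261072_at.

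The median share of the stage 1-10 level (signal + 50) left at stage 11-12 was 12.4% in arf6 arf8, 8.67% in single-copy plants and 9.77% in Columbia, against 97.4%, 98.7% and 92.7% over all probe sets. At stage 13-14 it was 10.4%, 8.27% and 5.61%, and in stem 11.5%, 8.31% and 9.07%. The added 50 sets a floor under these shares that is higher where the stage 1-10 level is lower. In signal itself, the member medians at stage 11-12 were 61.1 in arf6 arf8, 61.7 in single-copy plants and 130.4 in Columbia. A signal of 100 or more was left at stage 11-12 in 17 members in arf6 arf8, 21 in single-copy plants and 43 in Columbia. At stage 13-14 these counts were 14, 18 and 19.

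**Figure D3:**
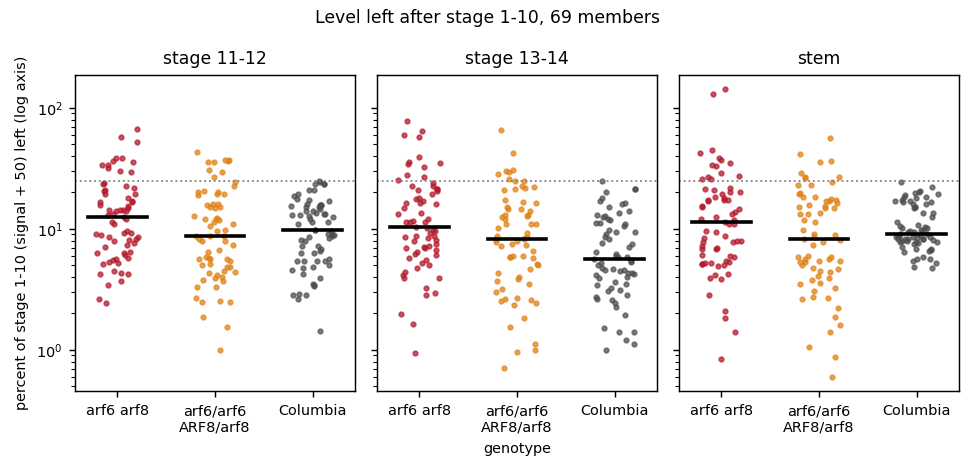
Each point is 1 of the 69 members, and the log axis gives the percent of its stage 1-10 level (signal + 50) left at stage 11-12, at stage 13-14 and in stem, for arf6 arf8, arf6/arf6 ARF8/arf8 and Columbia from left to right. Black bars are medians (12.4%, 8.67% and 9.77% at stage 11-12) and the dotted line at 25% is the limit that chose the members in Columbia.

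The members' differences between stage 13-14 and stage 11-12 were small in the mutants beside their fall after stage 1-10. Over both mutants 0 members and 0 of all probe sets (0%) passed limma at an adjusted p of 0.05. At an unadjusted p under 0.05, 3 members were lower and 0 higher, against 951 lower and 1084 higher over all probe sets. The 3 were AT3G20450 (-1.80), 252063_at (-1.67) and AT2G03740 (-1.01). The member median was -0.06 (range -1.80 to 0.66), with 41 members lower and 28 higher, and the smallest adjusted p among members was 0.109. Most of the fall therefore lay before or at stage 11-12 in both mutants, within the resolution of 3 stage pools.

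At stage 1-10 itself the members were weaker in arf6 arf8. Their median signal was 922.3 in arf6 arf8, 1305 in single-copy plants and 1954 in Columbia. Against single-copy plants, a contrast in which neither array chose the members, 59 were lower and 10 higher in arf6 arf8, with a median ratio of 0.682 (1.04 over all probe sets), and 16 were at least 2-fold lower (1.59% of all). Against Columbia all 69 were lower in arf6 arf8, with a median ratio of 0.462 and 45 at least 2-fold lower (1.21%). In single-copy plants 53 were lower and 16 higher than in Columbia, with a median ratio of 0.616 and 18 at least 2-fold lower (3.73%). Over all 22746 probe sets, 9881 were lower in arf6 arf8 than in single-copy plants. Against Columbia, 12077 of all probe sets were lower in arf6 arf8 and 13613 in single-copy plants. Both ratios to Columbia can be pushed down by choosing members for a high Columbia signal.

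The single-copy array of stage 1-10 is 1 of those that stood apart. The summed signal of the 4 covered late pollen genes at stage 1-10 was 1522.2 in arf6 arf8, 452.6 in single-copy plants and 444.2 in Columbia. AT5G07430 made up most of the sum in each genotype (967, 292.2 and 280.5). In the same order, AT5G07420 read 276.7, 5.1 and 30.3, APPB1 182.6, 53.8 and 47, and MGH3 95.9, 101.5 and 86.4. At stage 11-12 the sum was 8694.4, 10003.7 and 10840.4. Whether the higher sum in arf6 arf8 had a part in the lower member signals was not tested. Over all 4 tissues, arf6 arf8 minus single-copy gave 0 calls among members and 0 among all probe sets (0%) in limma. The member median was -0.22, with 55 lower and 14 higher and a smallest adjusted p of 0.266, and 7 members were lower and 1 higher at an unadjusted p under 0.05 (1522 lower and 1984 higher over all).

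Because members had to drop at least 4-fold by stage 11-12 in Columbia, they cannot show whether the mutants shut such genes off at another time. A second set was therefore taken without any stage 11-12 or stem array, after the data had been seen: 108 probe sets with a stage 1-10 signal of 500 or more and at least 4 times the stage 13-14 level (signal + 50) in all 3 genotypes. It holds 47 members and 61 others. The median share left at stage 11-12 was 16% in arf6 arf8, 18.6% in single-copy plants and 38.9% in Columbia. Over all probe sets it was 97.4%, 98.7% and 92.7%. A smaller share than in Columbia was left for 76 of 108 in arf6 arf8 and 83 of 108 in single-copy plants. A drop of at least 4-fold by stage 11-12 was seen for 79 of the 108 in arf6 arf8 (0.576% of all probe sets), 63 in single-copy plants (0.501%) and 48 in Columbia. A drop of less than 2-fold, or a rise, was seen for 7, 22 and 49 in the same order. Over all probe sets, 3.53% in arf6 arf8 and 2.37% in single-copy plants dropped at least 2-fold. No share over all probe sets is given here for Columbia or for the counts of 76 and 83. The 108 were chosen for a high signal on the stage 1-10 arrays from which the drops are measured. All probe sets were not, so their shares are not a matched background.

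The stage 11-12 levels alone gave the same order. Their median ratio to Columbia was 0.366 in arf6 arf8, with 100 of 108 lower, and 0.582 in single-copy plants, with 91 of 108 lower. Over all 22746 probe sets the median ratios were 1.01 and 0.995, with 10684 and 11590 lower. Between the mutants, the share left was smaller in arf6 arf8 for 60 and larger for 48. With 1 array per genotype and stage there is no test of these differences, and members and non-members share the same arrays.

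**Figure D4:**
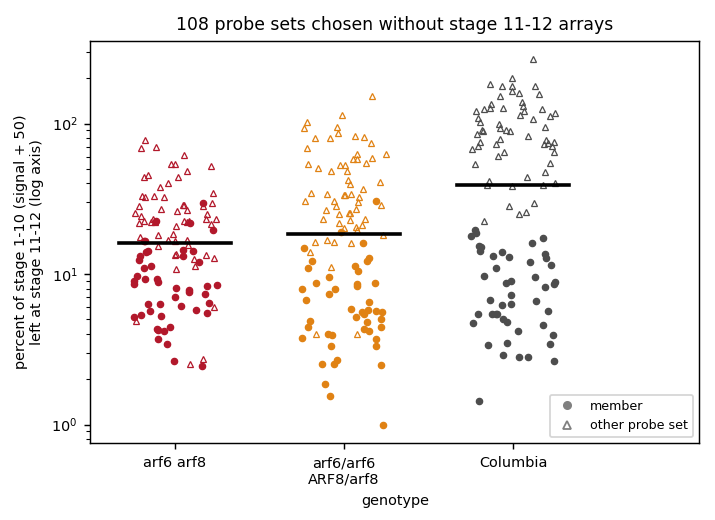
Each point is 1 of 108 probe sets chosen on stage 1-10 and stage 13-14 arrays only, and the log axis gives the percent of its stage 1-10 level (signal + 50) left at stage 11-12 in arf6 arf8, arf6/arf6 ARF8/arf8 and Columbia. Filled circles are members and open triangles other probe sets; black bars are medians over all 108 (16%, 18.6% and 38.9%), and the split into circles and triangles, set by Columbia stage 11-12 and stem levels, is no result.

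The same 2 conditions were also run on each mutant's own arrays. They found 79 probe sets in arf6 arf8 and 73 in single-copy plants, beside the 69 of Columbia. Of these, 46 were shared by arf6 arf8 and Columbia (58.2% of the arf6 arf8 set and 66.7% of the Columbia set), and 50 by single-copy plants and Columbia (68.5% and 72.5%). The mutants shared 60 (75.9% of the arf6 arf8 set and 82.2% of the single-copy set), and 45 were in all 3. Columbia members were also missed in the mutants. Of the 69, 53 reached a stage 1-10 signal of 500 in arf6 arf8 and 54 in single-copy plants. All 3 fold limits were met by 51 and 57 of the 69 in the same order. The 15 found in both mutants but not in Columbia each met the limits for stage 13-14 and stem in Columbia and missed that for stage 11-12, and 10 of them had dropped less than 2-fold there. An example, chosen after its values were seen, is AT5G61605, with 362.7 at stage 11-12 against 3608.8 at stage 1-10 in arf6 arf8, 2240.7 against 9808.7 in single-copy plants and 4027.5 against 3957.2 in Columbia.

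In stem the members read higher in Columbia than in either mutant. The Columbia stem was the highest of the 3 stems for 60 of the 69 members, against 39.6% of all probe sets. The median stem signal was 42.5 in arf6 arf8, 57.2 in single-copy plants and 151.7 in Columbia. The ratio to Columbia had a median of 0.536 in arf6 arf8, with 33 members at least 2-fold lower (2.22% of all probe sets), and of 0.546 in single-copy plants, with 30 (0.932%). The choice of members set an upper limit on the Columbia stem, and it also asked for a high young-bud signal in Columbia. Whether the choice had a part in the higher Columbia stem signals was not tested.

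Across the 69 members, log2 stem signal followed log2 stage 1-10 signal with a Pearson r of 0.215 in arf6 arf8, 0.252 in single-copy plants and 0.812 in Columbia (Spearman's rho 0.259, 0.291 and 0.803). These are descriptions across genes that share 2 arrays per genotype, and the members are not independent. Both Columbia values chose the members, and the fold limit sets an upper bound on the stem level in Columbia only, so the r values are not compared. The quartiles of the share left in Columbia stem were 7.83% and 15.1%, below the limit of 25%. Whether the bound had a part in the Columbia r was not tested. In stem, 252063_at had 35.4 in arf6 arf8, 108.5 in single-copy plants and 1025.4 in Columbia. The stem signals of 260001_at were 39.8, 38.3 and 553, and those of AT1G06260 110.4, 129.8 and 482.3, in the same order of genotypes. At stage 11-12 the r values were 0.394, 0.453 and 0.602 in arf6 arf8, single-copy plants and Columbia.

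**Figure D5:**
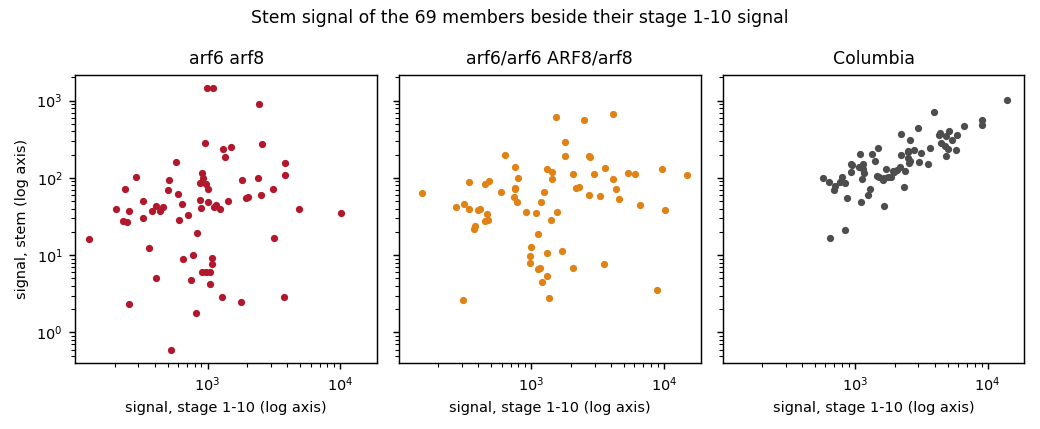
Each point is 1 of the 69 members, with its stage 1-10 signal on the x axis and its stem signal on the y axis (both log axes), in arf6 arf8, arf6/arf6 ARF8/arf8 and Columbia from left to right. The r values are 0.215, 0.252 and 0.812, and the fold limit that chose the members bounds the Columbia points from above.

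The limits of the choice lie within a continuous range. Just inside the fold limit were AT1G24600, 253863_at and 261072_at, with smallest Columbia folds of 4, 4.04 and 4.08, and just outside AT1G47980, 253087_at and 262674_at, with 3.97, 3.93 and 3.89. Just inside the signal limit were 259635_at, 253863_at and 261051_at, with Columbia stage 1-10 signals of 572.3, 633 and 652.3. Just outside were AT3G13610, 249150_at and 254338_s_at, with 450.6, 404.2 and 309.7.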

How the data were processed

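Total RNA (about 7 µg, TRIzol) was labelled as biotin cRNA and hybridised to 1 oligonucleotide array per genotype and tissue, per the labels' protocols. The deposited values are linear signal intensities made with MAS5, per the submitters' processing notes (version not given in the sources used here). Of 22810 probe sets, 64 controls were left out. Values were tested as log2(signal + 50) without a filter on low values, so that all 69 members were tested. The 8 mutant arrays were fitted with genotype + tissue in limma 3.58.1 under R 4.3.3 (lmFit and trended eBayes, 3 residual and 3.18 prior degrees of freedom). The p-values are two-sided, adjusted by Benjamini-Hochberg over 22746 probe sets and called at 0.05. The code was tested on simulated data. Sample labels do not say that arrays came from separate plants or harvests, p-values cover only the spread between these arrays, and the number of arrays limits precision.

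Gene names come from the platform annotation (13436 of the tested probe sets with 1 locus, 8730 not listed) and symbols from RefSeq for TAIR10.1. Any member could be named. Given in full were the 25 with the highest Columbia stage 1-10 signal, the 6 with the smallest drop in each mutant, list members and neighbours of the limits. The members, gene lists and roles were chosen with earlier results of these data known. Alternatives were the pseudocount (16 or 200), a filter of 100 in at least 1 array, quantile normalization, eBayes without trend, flower arrays only, other fold limits (3 or 8), leaving out each array, and, added after seeing the data, leaving out the arrays that stood apart.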

Additional observations from a re-analysis of the deposited data

Results flagged for a closer look

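In stem, AT5G44400 lay above its stage 1-10 level in arf6 arf8 and below it in arf6/arf6 ARF8/arf8. Stem minus stage 1-10 was 0.52 in arf6 arf8 and -1.27 in arf6/arf6 ARF8/arf8 on the log2(signal + 50) scale, from 1 array each. The unlisted probe set 260546_at did the same, with 0.39 in arf6 arf8 and -2.04 in arf6/arf6 ARF8/arf8. The difference between the genotypes was not tested for either.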

How the results depend on the processing

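At stage 11-12 against stage 1-10 over both mutants, the 64 members called lower became 37 with flower arrays only, 0 without the arf6/arf6 ARF8/arf8 arrays of stages 1-10 and 13-14 (an alternative chosen after seeing the data), and 0 to 65 leaving out 1 array at a time. At stage 13-14 the 65 became 11 without those 2 arrays and 44 to 67 leaving out 1 array. In stem the 63 became 29 to 66 leaving out 1 array. These settings hold fewer arrays. All 69 members stayed below 0 at stages 11-12 and 13-14 under every alternative run, and 67 to 69 did so in stem. Pseudocounts of 16 and 200, the filter, quantile normalization and eBayes without trend gave 60 to 65, 64 to 67 and 63 to 64 calls. A fold limit of 8 instead of 4 kept 34 members. With a pseudocount of 200, 34 members at stage 11-12, 37 at stage 13-14 and 35 in stem dropped at least 4-fold in arf6 arf8. No call of a named gene changed direction at stage 11-12. Each fit over tissues compared them within genotype, and the labels carry no replicate numbers for a further block. Stage pools, 1 array each and signals near the array floor limit how finely the timing can be read.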
